A study of Strongylocentrotus purpuratus with 8 samples.

Results

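The ciliary dyneins and axoneme proteins described here are 63 of the 6414 targets on a sea urchin (Strongylocentrotus purpuratus) array. They were chosen by name alone, as targets whose array name holds a word such as dynein, axonem, cilia, flagell, radial spoke, intraflagellar, outer dense, sperm-associated, Bardet or ropporin, with tektins left out. The array names are cut short, so each target is given by the words left in its name and by its probe number. Its role was read from the same words, and a name cut at Dynein li was grouped with the light chains although a light intermediate chain would be cut the same way. Measured levels stood clear of background for 46 of the 63 targets. None of these 46 differed between SpRunt-1 morphants and the control pool at an adjusted p under 0.05, while 5.00% of the 5481 genes tested did. The lowest adjusted p of any target, 0.0501, belonged to a radial spoke protein that was 1.62-fold higher in morphants.

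Cilia are built on a microtubule core, the axoneme, and beat when dynein arms slide neighbouring microtubule doublets against each other. A dynein heavy chain carries the motor and hydrolyses ATP, intermediate and light chains anchor and regulate the arm, and radial spokes carry signals from the central pair to the arms. Intraflagellar transport carries axoneme parts into a growing cilium, and cytoplasmic dynein moves cargo along microtubules elsewhere in the cell. The sea urchin blastula grows cilia before it hatches and swims with them afterwards.

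Embryos of 4 cultures with different parents were injected as zygotes with a splice-blocking morpholino antisense oligonucleotide against SpRunt-1, a Runx transcription factor, and were grown for 18 h at 15 °C to the hatched blastula. RNA of about 3600 embryos (about 5 µg) made up each morphant sample. The control was 1 pool of RNA (about 20 µg) taken from the untreated embryos of all cultures together, about 14400. Morphant and pool RNA shared 2 arrays per culture, labelled in opposite dyes, so that 8 arrays stand for n = 4 cultures. The study thus asked which transcripts differ when SpRunt-1 splicing is blocked at hatching. The control embryos were labelled untreated, so injection and the morpholino itself cannot be told apart from loss of SpRunt-1. The pool was also the same RNA on every array, so its own spread is not in the tests. Every sample was whole embryos, in which fewer cells of a type and less RNA per cell cannot be told apart.

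All values below are log2 ratios of morphant over control pool unless a fold is named, and errors are SDs between the 4 cultures. A ratio says nothing of how a target's level compares with that of another target. Ratios of the 2 arrays of a culture correlated at 0.890 to 0.950 over all genes. Between cultures the correlation was 0.326 to 0.636, and culture 1 stood lowest, at 0.326 to 0.420 with the others. Over all genes 162 were higher and 112 lower at the threshold. Of 9 measured stage and territory markers 1 passed the threshold, a target of SPAN, a protease of the blastula, which was higher by 2.01. The other 4 SPAN targets did not pass and read −0.00382 to 1.29. The remaining markers averaged below 0, and none passed. They were 50 kDa hatching en (−0.72), Hatching enzyme (−0.10), Blimp1 (−0.98) and ENDO16 (−0.68).

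Of the 46 measured targets, 24 had a mean above 0 and 22 below it, and their median was 0.01 against −0.02 for all genes. That balance included dim targets. A stricter filter kept the 33 targets with a probe well above background in both channels on all 8 arrays. Of these, 14 means lay above 0 and the median was −0.19, against −0.10 for all 3668 genes so kept. At an unadjusted p under 0.05, 8 targets were higher, beside 15.5% of all genes, and 9 were lower, beside 19.7%. All 4 cultures lay above 0 for 10 targets, where 20.9% of genes did, and below 0 for 11, where 23.4% did. These shares among the targets are close to those of the array as a whole. The median SD between cultures, 0.23, was also close to that of all genes, 0.24. Means beyond 2-fold occurred only on the low side, in 2 light chain targets described below. Of 5480 genes on the array, 144 were higher and 157 lower by 2-fold or more. Other processing put means beyond 2-fold on the high side too, such as 1.16 for DYNEIN GAMMA CH (CUST_4929) with normexp offset 0. The 33 dyneins, among them 2 targets with the cut name Ciliary d, had a median of −0.09, with 14 means above 0 and 19 below, and the other 13 targets a median of 0.17, with 10 above and 3 below.

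**Figure D1:**
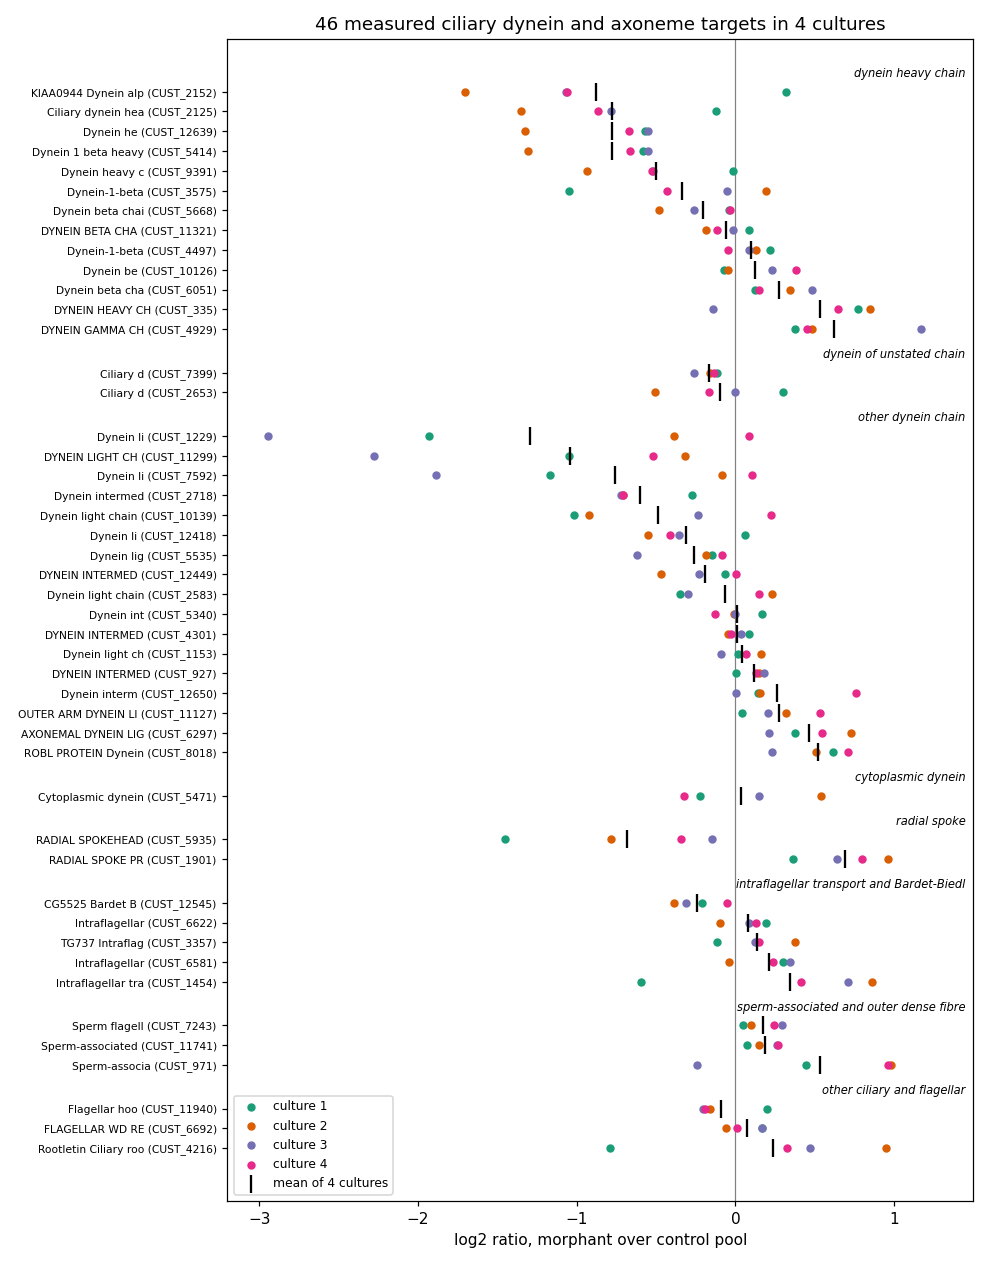
Log2 ratio of morphant over control pool (horizontal axis) for each of the 46 measured targets, ordered by mean within role, with 1 point per culture (mean of its 2 dye-swap arrays) and a bar at the mean of 4 cultures. Most targets lie within 1 log2 unit of 0, and 3 light chain targets reach −1.88 to −2.95 in culture 3.

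The heavy chains, the motor subunits, spread to both sides of 0. Of 21 heavy chain targets 13 were measured, 5 with a mean above 0 and 8 below, from −0.88 to 0.62 with a median of −0.20. At an unadjusted p under 0.05 there were 3 higher and 4 lower, and none passed after adjustment. All 4 cultures lay below 0 for 5 of the 13 and above 0 for 2.

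On the low side, the target Dynein 1 beta heavy (CUST_5414), a beta heavy chain, read −0.58, −1.31, −0.55 and −0.66 in cultures 1 to 4. All cultures were below 0, and culture 2 lay apart from the other 3. Its mean was −0.77 ± 0.36 (SD, n = 4), 0.585-fold, with a 95% interval of −1.18 to −0.37 and a limma adjusted p of 0.0569. Its other probe averaged −0.85 but read 0.17 in culture 1, so the probes part in that culture. Dynein he (CUST_12639), also a heavy chain, read −0.57, −1.32, −0.55 and −0.67. The mean was −0.78 ± 0.37 (adjusted p = 0.0576), and its second probe gave −0.79. On no array did the ratios of CUST_5414 and CUST_12639 differ by more than 0.22, while those of CUST_5414 spanned 0.82. Whether they probe the same transcript is not given in the files, so they cannot be taken as independent.

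Ciliary dynein hea (CUST_2125) read −0.12, −1.35, −0.78 and −0.87, and Dynein heavy c (CUST_9391) read −0.02, −0.93, −0.52 and −0.52. In both, culture 1 was near 0 and culture 2 lowest. Their means were −0.78 ± 0.50 (adjusted p = 0.0866) and −0.50 ± 0.38 (adjusted p = 0.114), each from 1 kept probe. The lowest heavy chain mean belonged to KIAA0944 Dynein alp (CUST_2152), named for the alpha chain, with 0.32, −1.71, −1.07 and −1.06. Here culture 1 was above 0 and the other 3 well below, and the second probe showed the same split, with 0.28 in culture 1 and −1.72 to −1.07 in the others. The mean of −0.88 ± 0.85 had a 95% interval from −1.80 to 0.04 (adjusted p = 0.151). Without culture 1, CUST_2152 averaged −1.28 (adjusted p = 0.0356), CUST_2125 −0.999 (adjusted p = 0.039) and CUST_9391 −0.66 (adjusted p = 0.0466), and each then passed the threshold. So did 887 of all 5481 genes, against 274 with all 4 cultures. Of the 46 targets 2 higher and 5 lower passed then. None did without culture 2, 3 or 4, where 1, 0 and 0 of all 5481 genes passed.

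On the high side, DYNEIN GAMMA CH (CUST_4929) read 0.37, 0.48, 1.17 and 0.45; in Chlamydomonas the gamma chain is a heavy chain of the outer arm. All cultures were above 0, with culture 3 apart from the rest. The mean was 0.62 ± 0.37, 1.54-fold (interval 0.20 to 1.04, adjusted p = 0.0798), and the second probe gave 0.53 ± 0.19. DYNEIN HEAVY CH (CUST_335) read 0.77, 0.85, −0.14 and 0.65, with culture 3 the only culture below 0, and averaged 0.53 ± 0.45 (adjusted p = 0.133). Dynein beta cha (CUST_6051), a beta chain, read 0.12, 0.34, 0.48 and 0.15 and averaged 0.27 ± 0.17 (adjusted p = 0.113). Dynein-1-beta (CUST_3575) had probes of opposite sign, with means of −0.34 and 0.36. The other 4 measured heavy chains had means of −0.20 to 0.12.

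The scale mattered for the lower heavy chains, though not for them alone. When each array was only centred on its median, in place of the loess fit that follows brightness, the median of all genes was 0.10 in place of −0.02. On that scale CUST_5414 averaged −0.23 (adjusted p = 0.431), CUST_12639 −0.21, CUST_2125 −0.20, CUST_9391 −0.14 and CUST_2152 −0.32. DYNEIN GAMMA CH averaged 0.94 on it (adjusted p = 0.098). None of these 6 turned sign on it, whereas CUST_3575 turned to 0.22. Targets of other roles moved too. RADIAL SPOKE PR (CUST_1901) went from 0.69 to 1.22, Cytoplasmic dynein (CUST_5471) from 0.03 to 0.55 and Ciliary d (CUST_7399) from −0.17 to −0.19.

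Light and intermediate chains, which build and regulate the arms, also lay on both sides. Of 19 such targets 17 were measured, 8 with means above 0 and 9 below. The 11 light chains had a median of −0.26 and the 6 intermediate chains a median of 0.01. At an unadjusted p under 0.05, 3 were higher and 2 lower.

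The 3 largest SDs between cultures among the 46 targets belonged to light chains. Dynein li (CUST_1229) read −1.93, −0.39, −2.95 and 0.08 in cultures 1 to 4. The ratio was thus far below the pool in cultures 3 and 1 and close to it in cultures 2 and 4. The second probe gave −2.08, −0.49, −3.19 and 0.18. The mean, −1.30 ± 1.40 or 0.407-fold, had a 95% interval from −2.79 to 0.20 (adjusted p = 0.176). DYNEIN LIGHT CH (CUST_11299) read −1.05, −0.32, −2.28 and −0.52, and a further Dynein li (CUST_7592) read −1.17, −0.08, −1.88 and 0.10. Both were lowest in culture 3, next lowest in culture 1 and nearer 0 in the other cultures. Their means were −1.04 ± 0.88 (0.486-fold, adjusted p = 0.125) and −0.76 ± 0.94 (adjusted p = 0.218). Second probes showed the same order, with −0.996, 0.31, −1.73 and 0.03 for CUST_11299 and −1.16, −0.10, −1.89 and 0.12 for CUST_7592. Ratios of the 3 targets differed by up to 0.78 to 1.13 on an array, and whether they share sequence is not given in the files.

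Other light chains were above 0 in every culture. ROBL PROTEIN Dynein (CUST_8018), named for roadblock, a dynein light chain first described in Drosophila, read 0.62, 0.51, 0.23 and 0.71. The mean was 0.52 ± 0.21, 1.43-fold (interval 0.25 to 0.78, adjusted p = 0.0558). Its second probe read 0.77, 0.97, 0.58 and 0.47, a mean of 0.70. AXONEMAL DYNEIN LIG (CUST_6297) read 0.37, 0.73, 0.21 and 0.54 and averaged 0.46 ± 0.22 (1.38-fold, adjusted p = 0.0659), with 0.43 by its second probe. OUTER ARM DYNEIN LI (CUST_11127), a light chain of the outer row of arms, read 0.04, 0.32, 0.21 and 0.53 and averaged 0.27 ± 0.21 (adjusted p = 0.134). In all 3 no culture fell below 0, yet none passed the test.

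Probes to Dynein light chain (CUST_10139) had opposite signs, −0.49 ± 0.59 against 0.15. A spot of CUST_10139 was left out in culture 4, where its value rests on 1 array and a dye effect does not cancel. Another target named Dynein light chain (CUST_2583) gave −0.07 and 0.38 by its 2 probes, and Dynein light ch (CUST_1153) gave 0.04 and −0.02. The adjusted p of the brighter probe was 0.216, 0.740 and 0.714 in these 3 targets. The other 2 measured light chains, Dynein li (CUST_12418) and Dynein lig (CUST_5535), averaged −0.31 ± 0.26 and −0.26 ± 0.24, and CUST_12418 passed the threshold without culture 1, which was its only culture above 0.

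Dynein intermed (CUST_2718), an intermediate chain, read −0.27, −0.71, −0.72 and −0.71. Cultures 2 to 4 were nearly equal and culture 1 stood closer to 0. Its mean of −0.60 ± 0.22, 0.658-fold, had an interval of −0.88 to −0.33 and the lowest adjusted p of the dyneins, 0.0521. Its other probe was not kept, so the value rests on 1 probe. Probes had opposite signs for DYNEIN INTERMED (CUST_12449), with −0.19 and 0.32, and for Dynein interm (CUST_12650), with 0.27 and −0.59. For CUST_12650 the brighter probe read 0.14, 0.15, 0.01 and 0.76 and the other −0.43, −0.62, −0.98 and −0.34, so no culture agreed in sign between them. The remaining 3 intermediate chains lay between 0.01 and 0.12.

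Some of the chain names above do not say whether the dynein is ciliary or cytoplasmic, among them DYNEIN HEAVY CH (CUST_335) and ROBL PROTEIN Dynein (CUST_8018). Cytoplasmic dynein (CUST_5471), the only target named as cytoplasmic, read −0.23, 0.54, 0.15 and −0.32, with cultures on both sides of 0. It averaged 0.03 ± 0.39 with an interval of −0.41 to 0.48 (adjusted p = 0.899). In 3 targets the name was cut before any chain, and the 2 that were measured are both called Ciliary d, where the word dynein itself is cut. Ciliary d (CUST_7399) read −0.11, −0.16, −0.26 and −0.13, a narrow spread with all cultures below 0, and averaged −0.17 ± 0.06 (adjusted p = 0.136). The other of them (CUST_2653) averaged −0.09 ± 0.33 (adjusted p = 0.674).

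Both radial spoke targets were measured. RADIAL SPOKE PR (CUST_1901) read 0.36, 0.96, 0.64 and 0.80, above the pool in every culture and lowest in culture 1. Its second probe gave 0.41, 1.23, 0.77 and 0.92. The mean of 0.69 ± 0.26, 1.62-fold, had an interval of 0.38 to 1.00 and the adjusted p of 0.0501 given above. Under 17 other processing settings it stayed above 0, from 0.60 to 1.22, and passed the threshold in 8 of them. For RADIAL SPOKEHEAD (CUST_5935) the brighter probe read −1.45, −0.78, −0.15 and −0.34 and the other 0.39, 0.81, 1.17 and 1.58. All cultures were below 0 by one probe and above 0 by the other. Means of −0.68 ± 0.58 and 0.99 ± 0.50 stood 1.67 apart, the widest gap of any target here, so no direction can be given for this spokehead protein.

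**Figure D2:**
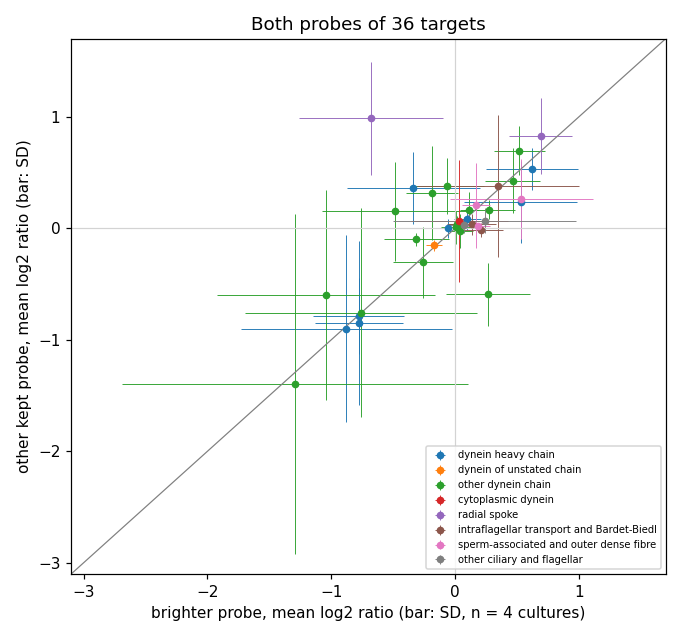
Mean log2 ratio by the brighter probe (horizontal axis) against that by the other kept probe (vertical axis) for the 36 targets with 2 kept probes, coloured by role; bars are SDs between 4 cultures and the diagonal marks equal values. Points off the diagonal include RADIAL SPOKEHEAD at −0.68 and 0.99, and 8 of the 36 lie in the quadrants of opposite sign.

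Across the 36 targets with 2 kept probes the median gap between probe means was 0.09, and 28 had the same sign by both. Besides the 7 targets already described, the eighth pair of opposite sign was Intraflagellar (CUST_6581), with 0.21 and −0.01. The remaining 10 measured targets rest on 1 probe.

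Names of intraflagellar transport and Bardet-Biedl proteins, which serve the building and traffic of cilia, covered 7 targets. Of these 5 were measured, 4 with means above 0, in a range of −0.24 to 0.35. Intraflagellar tra (CUST_1454) read −0.60, 0.86, 0.71 and 0.41, with culture 1 alone below 0, and averaged 0.35 ± 0.66 (adjusted p = 0.397). Without culture 1 it averaged 0.66 and passed (adjusted p = 0.0458). CG5525 Bardet B (CUST_12545) read −0.21, −0.39, −0.31 and −0.05, below 0 in all cultures, and averaged −0.24 ± 0.15 (adjusted p = 0.119). Its place in this group rests on the cut words Bardet B alone, and a role in cilia was not checked. TG737 Intraflag (CUST_3357), named for the mouse gene of an intraflagellar transport subunit, averaged 0.13 (adjusted p = 0.369), and Intraflagellar (CUST_6622) averaged 0.08 (adjusted p = 0.498).

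Names of sperm-associated and sperm flagellar proteins covered 4 targets, of which 3 were measured, all with means above 0. Sperm-associa (CUST_971) read 0.44, 0.98, −0.24 and 0.96, with culture 3 below 0, and averaged 0.53 ± 0.58 (adjusted p = 0.181). Sperm-associated (CUST_11741) read 0.08, 0.15, 0.26 and 0.27 and averaged 0.19 ± 0.09 (adjusted p = 0.130). Sperm flagell (CUST_7243) averaged 0.17 with every culture above 0 (adjusted p = 0.166). Its second probe read −0.01, 0.20, 0.74 and −0.11, on both sides of 0. The second probe of CUST_971 read 0.54, −0.16, 0.09 and 0.58, so its probes part in cultures 2 and 3. By its second probe CUST_11741 averaged 0.02.

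The last group holds 6 targets, 3 of them measured. Rootletin Ciliary roo (CUST_4216), named for the protein of the rootlet that anchors the basal body, read −0.79, 0.95, 0.47 and 0.32. Culture 1 was far below the other 3, and the mean was 0.24 ± 0.74 (adjusted p = 0.601). Its second probe read only −0.10, 0.15, 0.12 and 0.10, so the wide split rests on 1 probe. Ratios of CUST_4216 lay within 0.27 of those of CUST_1454 on every array. Flagellar hoo (CUST_11940) read 0.20, −0.16, −0.20 and −0.19 and averaged −0.09 (adjusted p = 0.534), and FLAGELLAR WD RE (CUST_6692) averaged 0.07 (adjusted p = 0.518).

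The cultures differed from each other for most targets. An F test over the 4 cultures on the 8 arrays, with a term for the dye, gave an adjusted p under 0.05 for 32 of the 46 targets, where 61.5% of all genes passed. By role this held for 11 of 13 heavy chains and 13 of 17 light and intermediate chains. It tests cultures against the difference between dye-swap arrays, which is technical. Culture 3 was the lowest of the 4 for 9 of the 17 light and intermediate chains and for 1 of the 13 heavy chains, and for 17.7% of all genes. Culture 2 was the lowest for 7 of the 13 heavy chains and for 34.9% of all genes. For 25 of the 46 targets the cultures lay on both sides of 0. Of all genes, 20.9% had all 4 cultures above 0 and 23.4% all 4 below, and the rest were split.

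**Figure D3:**
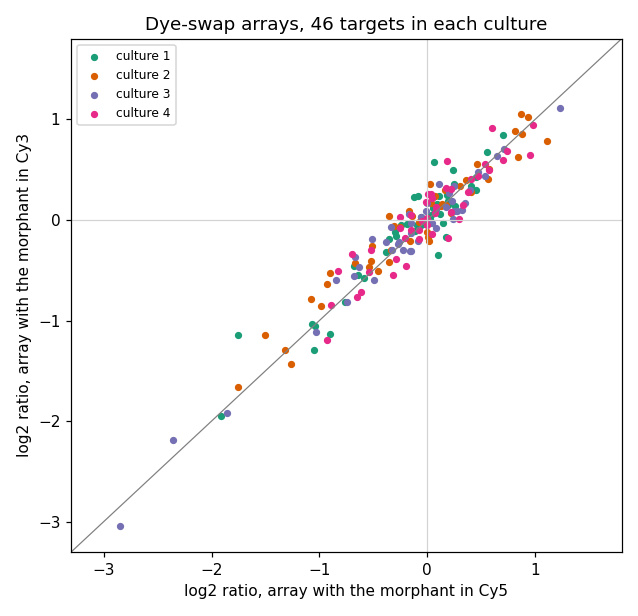
Log2 ratio of each of the 46 targets in each culture on the array with the morphant in Cy5 (horizontal axis) and on the array with the morphant in Cy3 (vertical axis), coloured by culture, with the diagonal at equal values. The points follow the diagonal, with a median difference of 0.116 and a largest of 0.614.

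Exchanging the dyes moved the targets little. In 183 pairs of arrays the median difference was 0.116 and the largest 0.614, and 2 pairs differed by more than 0.5. Over all genes 905 of 21861 pairs did. The sign was the same in 86.3% of pairs, against 83.4% for all genes. For 3 targets the mean over the Cy5 arrays and the mean over the Cy3 arrays had opposite signs, as for 685 of 5480 genes.

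**Figure D4:**
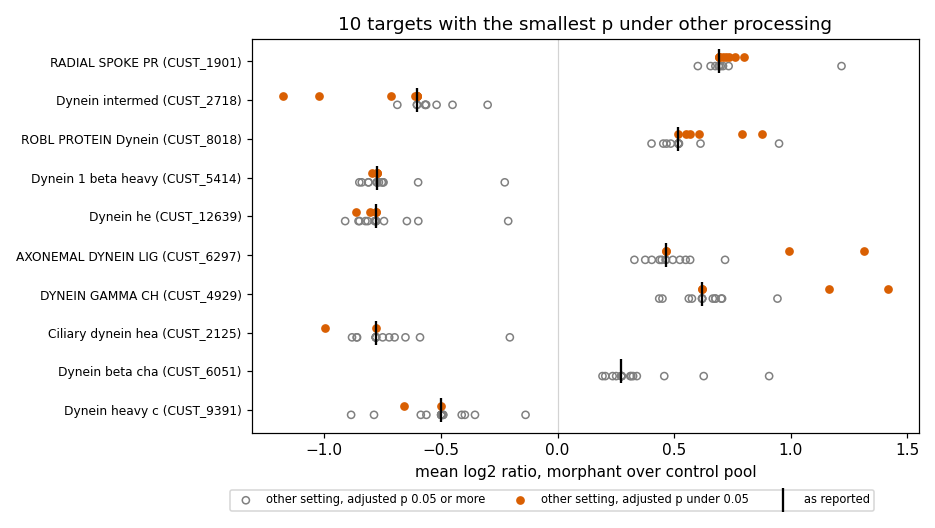
Mean log2 ratio (horizontal axis) of the 10 targets with the smallest p, with a black bar for the reported value and a point for each other processing setting, filled where its adjusted p was under 0.05. Every point lies on the same side of 0 as the reported value, and filled points appear for 9 of the 10 targets.

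Other processing moved several of these targets past the threshold, in the same direction. Dynein intermed (CUST_2718) passed in 8 of 17 settings (−1.18 to −0.30) and ROBL PROTEIN Dynein in 6 (0.40 to 0.95). CUST_5414, CUST_12639 and DYNEIN GAMMA CH passed in 4 of 17 each, and AXONEMAL DYNEIN LIG in 4 of 16. By the values under each setting, the largest shifts of size came from the offset of the background correction, the scanner software's ratio and median centring.

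The other axoneme and microtubule motor names on the array, tektins, tubulins, kinesins and dynactins, covered 54 targets, 45 of them measured, with a median of 0.02 and a range of −1.17 to 1.09. Of these, 2 were higher and 1 lower, beside 5.00% of all genes called. Both that were higher are among 5 measured tektins, filament proteins of the doublet wall: TEKTIN A1 by 1.09 ± 0.14 (adjusted p = 0.025) and TEKTIN B1 by 0.71 ± 0.17 (adjusted p = 0.034). The other 3 tektins did not pass and read 0.17 to 0.99, the lowest of them a second target named Tektin-B1 (CUST_9119, 0.17 ± 0.14, adjusted p = 0.191). Kinesin-like protei (CUST_2537), a microtubule motor, read −0.37, −0.72, −0.47 and −0.47 and was lower by a mean of −0.51 ± 0.15 (adjusted p = 0.046). None of 25 targets with tubulin in the name passed, a list that also holds names such as Tubulin tyrosine l and Tubulin-specif; the 15 named as alpha or beta tubulins read −1.07 to 0.71. None of 5 dynactins passed. No array name matched FoxJ1 or RFX, regulators of ciliary genes in vertebrates.

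The 17 targets not measured were dim in both RNAs, each well above background on at most 2 of 8 arrays, with mean ratios of −0.07 to 0.02. They include 8 heavy chains, an intermediate chain name, the outer arm light chain LC3, 2 intraflagellar transport names and 1 sperm flagellar name. At these signals a difference was not detectable. By the probe that stood for each target, 32 of the 46 measured targets were well above background in both RNAs on all 8 arrays. AXONEMAL DYNEIN LIG was so by its second probe. In the control, 3 targets were so on 1 array only (Dynein-1-beta CUST_4497, Dynein int CUST_5340 and FLAGELLAR WD RE). No measured target was saturated.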

How the data were processed

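Per the labels, RNA of SpRunt-1 morphants from 4 cultures was set against 1 pool of untreated embryos on 8 two-colour arrays; total RNA was extracted by column and amplified from oligo dT. Version 10.7.1.1 of Agilent Feature Extraction read the scans, per the submitters' processing notes. The resulting files give, per the file headers, mean signal and local background intensity per channel, and a log10 ratio of Cy5 over Cy3. The deposited series matrix gives the authors' log2 ratios, already turned to morphant over control (r = 0.968 to 0.988 with the ratios computed here, column medians 0.000503 to 0.0248); how it was centred is not given in the sources used here.

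Intensities were corrected by normexp (offset 50), each array was normalized by loess with 536 control spots at weight 0, and 0 to 32 outlier spots per array were left out (limma 3.58.1 on R 4.3.3). The 2 arrays of a culture were averaged (n = 4). A probe was kept if well above background in 1 channel or both on at least 4 of 8 arrays (9563 of 12696), and the brightest kept probe stood for its target. Means were tested against 0 with lmFit and eBayes, Benjamini-Hochberg over 5481 genes, threshold 0.05; the F test covered 5480, as 1 gene lacked a culture. The fit was tested on simulated data. The number of cultures limits the precision more than the number of arrays.

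Members, lists and tests were chosen with earlier results of these data known. Named with values are the 10 smallest p, the highest and lowest of each role, and targets whose probes disagree, 29 in all; CUST_335, CUST_11299, CUST_7592, CUST_11127, CUST_12418, CUST_5535, CUST_3357, CUST_6622, CUST_11741, CUST_6692 and the LC3 name were added after their values were seen. Alternatives covered background, normalization, filters, probes, dyes, cultures, variance model and thresholds. Probe sequences were not used here.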

Additional observations from a re-analysis of the deposited data

Results flagged for a closer look

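In 5 of the 46 measured targets 1 culture lay far from the other 3, by a gap of more than 0.829 of the range of the 4 values (Dixon's 95% critical value). Chance flags about 1 in 20 groups of this size, and targets that share sequence or regulation are not independent. The share of all genes flagged by this rule is not given here, so 5 of 46 cannot be read as an excess. In Dynein 1 beta heavy (CUST_5414) culture 2 read −1.31 against −0.66 to −0.55 in the others, and in Dynein he (CUST_12639) culture 2 read −1.32 against −0.67 to −0.55. As these 2 targets read alike on every array, they may be a single observation. The second probe of CUST_5414 read 0.17, −1.57, −0.95 and −1.04 in cultures 1 to 4. By that probe culture 1, not culture 2, lay furthest from the rest. DYNEIN GAMMA CH (CUST_4929) read 1.17 in culture 3 against 0.37 to 0.48, and its second probe read 0.73 there. Culture 1 stood apart in Flagellar hoo (CUST_11940), at 0.20 against −0.20 to −0.16, and in Dynein intermed (CUST_2718), at −0.27 against −0.72 to −0.71. The cause was not tested.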

How the results depend on the processing

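The median of the measured targets, 0.01 as reported, ran from −0.19 with the stricter filter (33 targets) to 0.08 with median centring, and was also below 0 with offset 0 (−0.0157), the scanner's ratio (−0.0352) and no filter (−0.0225). The number differing between cultures, 32 as reported, ran from 23 to 38. The number of targets passing, 0 higher and 0 lower as reported, became 4 and 3 with normexp offset 0, 3 and 1 with the scanner software's log ratio, 1 and 3 with the stricter filter, 2 and 2 with the authors' table, 7 and 8 with 8 arrays and culture as a random block, 2 and 1 with the Cy3 arrays, with the mean of probes and with the trended robust variances, 2 and 0 with probes tested separately, and 4 and 4 at a threshold of 0.1. Leaving out a culture gave 0 to 2 higher and 0 to 5 lower, the highest counts without culture 1. For all genes, 162 higher and 112 lower as reported, the counts were 98 and 65 without background subtraction, 456 and 340 with offset 0, 535 and 304 with the scanner's ratio, 49 and 7 with median centring, 112 and 68 with no filter, 246 and 202 with the stricter filter, 329 and 252 with the authors' table, 675 and 769 with the random block, 229 and 172 with the Cy3 arrays, 315 and 194 by probes, 387 and 322 with trended robust variances, 596 and 628 at 0.1 and 0 and 0 at 0.01. Leaving out a culture gave 0 to 355 higher and 0 to 532 lower: without culture 1 355 and 532, without culture 2 0 and 1, and without culture 3 or culture 4 0 and 0, with fewer samples in each fit.

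The 29 targets named by rule were followed singly, and the sign of 9 turned in at least 1 setting. With the mean of probes RADIAL SPOKEHEAD read 0.15, Dynein-1-beta (CUST_3575) 0.0128, DYNEIN INTERMED (CUST_12449) 0.0646, Dynein interm (CUST_12650) −0.16 and Dynein light chain (CUST_2583) 0.16. With median centring CUST_3575 read 0.22, CUST_12449 0.36 and CUST_2583 0.51. The scanner's ratio gave −0.0615 for Rootletin (CUST_4216) and −0.00884 for Cytoplasmic dynein (CUST_5471), which read −0.00716 with offset 0 too; the Cy3 arrays gave 0.00544 for CUST_2583. Leaving out each culture in turn gave −0.13 to 0.15 for CUST_5471, −0.224 to 0.0433 for Ciliary d (CUST_2653), −0.00082 to 0.0819 for Dynein light ch (CUST_1153) and −0.166 to 0.0261 for CUST_2583. The cause was not tested. The slide or scan as a block was not run, because all arrays lie on 1 slide and 1 scan. No paired analysis was possible because the series has only 1 group, set against a common pool.

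Limits are the 4 cultures, the single untreated pool, signals near background, shortened names and probes whose shared sequence is not known here.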
